A study of Mus musculus with 7 samples.

Results

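The Egf receptor system was followed in whole mouse colon tumors through 10 genes: 3 receptors (Egfr, Erbb2 and Erbb3) and 7 ligands (Areg, Ereg, Epgn, Hbegf, Tgfa, Btc and Egf). They were chosen by name, as members of this receptor and ligand family, out of 43346 genes listed in the count table. All 10 passed the filter on low counts and were among the 15810 genes tested.

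The tumors came from wild-type C57BL6/J recipients that received bone marrow (BM) and then a colitis-associated cancer protocol. Their strain and an age of 8 weeks are as labelled, whereas the study's methods describe younger, lethally irradiated recipients of a congenic strain. That protocol began with 1 injection of 10 mg/kg of the mutagen azoxymethane. Dextran sulfate sodium at 3%, which injures the colon lining, was then given in 3 cycles of 1 week on and 2 weeks off. Donors were Dnmt3a+/f:Mx1-Cre mice for the 4 tumors with Dnmt3a(+/-) BM and Dnmt3a+/+:Mx1-Cre mice for the 3 control tumors with Dnmt3a(+/+) BM, so both grafts carried the Cre transgene and both kinds of donor had been given poly(I:C). The interferon-inducible Mx1 promoter drives Cre in blood-forming cells, among other tissues, after poly(I:C), and the graft models clonal hematopoiesis, in which mutant blood stem cells expand. Only the graft carried the deletion: epithelium, vessels and other tissue of the irradiated host kept intact Dnmt3a. The tumors came from 2 transplantation experiments. BMT18 held the Dnmt3a(+/+)-BM tumors 1 and 2 and the Dnmt3a(+/-)-BM tumors 1 and 2, while BMT8 held the Dnmt3a(+/+)-BM tumor 3 and the Dnmt3a(+/-)-BM tumors 3 and 4.

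Egf family ligands are made as membrane-anchored precursors that proteases release from the cell surface. They bind Egfr, or Erbb4 for some of them, and the bound receptor pairs with another member of the family and phosphorylates itself. Erbb2 has no known ligand and acts as the preferred partner, and Erbb3 has a weak kinase but binds the p85 subunit of PI3K. In the intestine the pathway drives growth and repair of the epithelium through the Ras-ERK and PI3K cascades, and it is a drug target in colorectal cancer.

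The ligand genes Epgn, Ereg, Areg and Btc lie in this order within 1 stretch of chromosome 5 between Mthfd2l and Parm1 (GRCm38, GENCODE M21). Per kilobase of exon, their levels in these tumors ranged from the highest of all 10 genes to nearly the lowest. The bases just before the start of 3 of them are therefore shown, as listed by RefSeq for GRCm38.p6. RefSeq windows were found for 7 of the 10 genes and not for Ereg, Erbb3 and Hbegf. Each window is written 5′ to 3′ on the strand of its gene and was trimmed to bases outside annotated exons. For Areg and Btc it is the 250 bases directly before the start, whereas for Epgn it has 197 bases and ends before an annotated exon, upstream of the RefSeq start at 91027517. Capitals mark a TATA box (TATAAA) or a cyclic AMP response element (TGACGTCA).

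Areg (chr5:91139349-91139598, plus strand): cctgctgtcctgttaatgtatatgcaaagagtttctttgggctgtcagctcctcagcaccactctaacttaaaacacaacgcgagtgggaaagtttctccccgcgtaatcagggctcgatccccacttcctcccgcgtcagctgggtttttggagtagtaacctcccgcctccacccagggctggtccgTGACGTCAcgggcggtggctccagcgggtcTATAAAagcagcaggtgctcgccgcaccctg
Epgn (chr5:91027267-91027463, plus strand): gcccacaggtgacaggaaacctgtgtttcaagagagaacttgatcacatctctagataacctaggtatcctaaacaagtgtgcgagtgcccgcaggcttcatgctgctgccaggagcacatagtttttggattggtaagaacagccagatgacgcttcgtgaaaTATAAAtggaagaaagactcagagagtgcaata
Btc (chr5:91402995-91403244, minus strand): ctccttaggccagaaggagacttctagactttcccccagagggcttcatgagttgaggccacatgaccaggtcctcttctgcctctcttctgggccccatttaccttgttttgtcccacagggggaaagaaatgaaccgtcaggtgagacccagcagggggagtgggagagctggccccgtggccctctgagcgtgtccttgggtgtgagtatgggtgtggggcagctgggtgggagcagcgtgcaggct

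The cyclic AMP response element of Areg begins 61 bases before its start and the TATA box 31 bases before it. On either strand, TGACGTCA was found in 1.55% and TATAAA in 12.4% of the 32851 RefSeq windows, each taken here as the untrimmed 250 bases before a start. The Epgn window held TATAAA only, and the Btc window held neither motif. The AP-1 motif TGANTCA, present in 6.75% of all windows, was in none of the 3. The cyclic AMP response element and the TATA box of Areg do not overlap, and a match describes the letters only.

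Sequencing depth ranged from 38472738 to 64314999 counts per tumor. Levels are counts-per-million values (CPM) of the TMM-scaled library. Differences are log2 fold changes of Dnmt3a(+/-)-BM over Dnmt3a(+/+)-BM tumors with their standard error (SE), from the quasi-likelihood test of edgeR, with p-values adjusted by Benjamini-Hochberg over all genes tested. Calls needed an adjusted p under 0.05 together with an absolute log2 fold change over 1. Colon epithelium markers summed to 10879 to 39044 CPM per tumor, an epithelial content that goes with the labelled tissue. Epcam of this list, a surface protein of epithelium, stood between 1543 and 3239 CPM, and Cdx2 between 9.4 and 22.8 CPM. Keratins and other squamous markers were present too, and their sum was highest in Dnmt3a(+/+)-BM tumor 1 (26599 CPM) and Dnmt3a(+/-)-BM tumor 1 (28320 CPM) and lowest in Dnmt3a(+/-)-BM tumor 2 (284 CPM). In tumor 1 of each group it exceeded the sum of colon epithelium markers (20023 and 15224 CPM). Dnmt3a(+/-)-BM tumor 2 also had the highest sums of fibroblast, endothelial, leukocyte and macrophage, and mast cell and type 2 innate lymphoid markers, and the lowest of colon epithelium and neutrophil markers. The marker lists were also compared between the groups, and edgeR called none of their genes. The fitted log2 fold change was above 0 for 6 of 6 tested endothelial markers (median 1.81, 4 at an unadjusted p under 0.05, 3 called by DESeq2), 8 of 8 fibroblast markers (median 0.73, 1 at that p), 7 of 7 mast cell and type 2 innate lymphoid markers (1.56, 1 at that p) and 6 of 6 leukocyte and macrophage markers (0.72, 0 at that p). Without Dnmt3a(+/-)-BM tumor 2 it ran from 0.89 to 1.55 for endothelial, 0.097 to 1.02 for fibroblast and -0.055 to 0.23 for leukocyte and macrophage markers. For mast cell and type 2 innate lymphoid markers it then ran from -0.84 (Mcpt4) to 0.98 (Il1rl1), with no value for Cpa3. With all 7 tumors the fitted change was below 0 for 10 of 11 colon epithelium markers (median -0.58, 1 higher and 2 lower at that p, 1 called by DESeq2) and 5 of 5 neutrophil markers (-0.26, 0 at that p), and mixed for squamous (4 above and 5 below 0) and smooth muscle markers (3 and 3). Beside these counts, 5.83% of all genes tested were higher and 5.2% lower at that p in edgeR, and DESeq2 called 1.87%. Dnmt3a itself was at 24.3, 23.1 and 20.2 CPM with Dnmt3a(+/+) BM and 27.7, 43.0, 28.3 and 22.0 CPM with Dnmt3a(+/-) BM (log2 fold change 0.43, SE 0.24, adjusted p = 0.542), a level that host cells with both alleles share in, so it does not check the deletion.

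**Figure D1:**
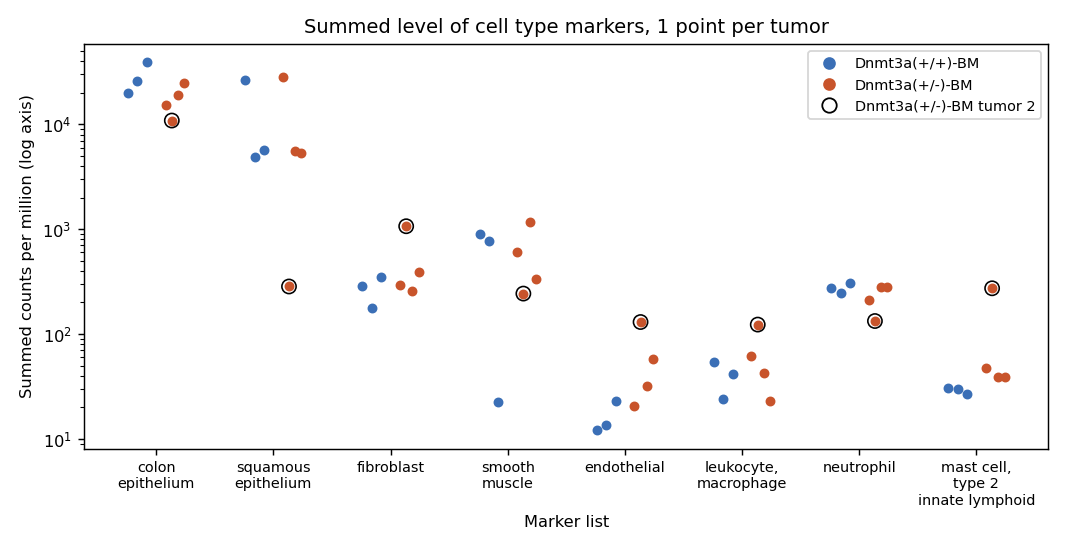
Summed TMM-scaled CPM (log axis) of each marker list, 1 point per tumor, blue for Dnmt3a(+/+)-BM and orange for Dnmt3a(+/-)-BM, with Dnmt3a(+/-)-BM tumor 2 ringed. The ringed tumor is at the top for fibroblast (1067), endothelial (130.1) and mast cell and type 2 innate lymphoid markers (273, of which Il1rl1 holds 224) and at the bottom for squamous epithelium markers (284).

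None of the 10 genes was called between the grafts. The edgeR test called 0 of 15810 genes (0%), and its lowest adjusted p was 0.361 over all genes and 0.553 over the 10. At an unadjusted p under 0.05 the test held 11% of all genes (5.83% higher and 5.2% lower with Dnmt3a(+/-) BM) and 0 of the 10. DESeq2 called 1.87% of 16056 genes and 0 of the 10, and none of the 10 had an unadjusted p under 0.05 there. The groups did not overlap in CPM for 12.4% of all genes tested, whereas they overlapped for each of the 10. The fitted log2 fold change was below 0 for 6 genes and above 0 for 4, with a median of -0.18, beside a median of 0.0025 over all genes tested. These are tumor totals, in which fewer cells of a type and less RNA per cell cannot be told apart.

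**Figure D2:**
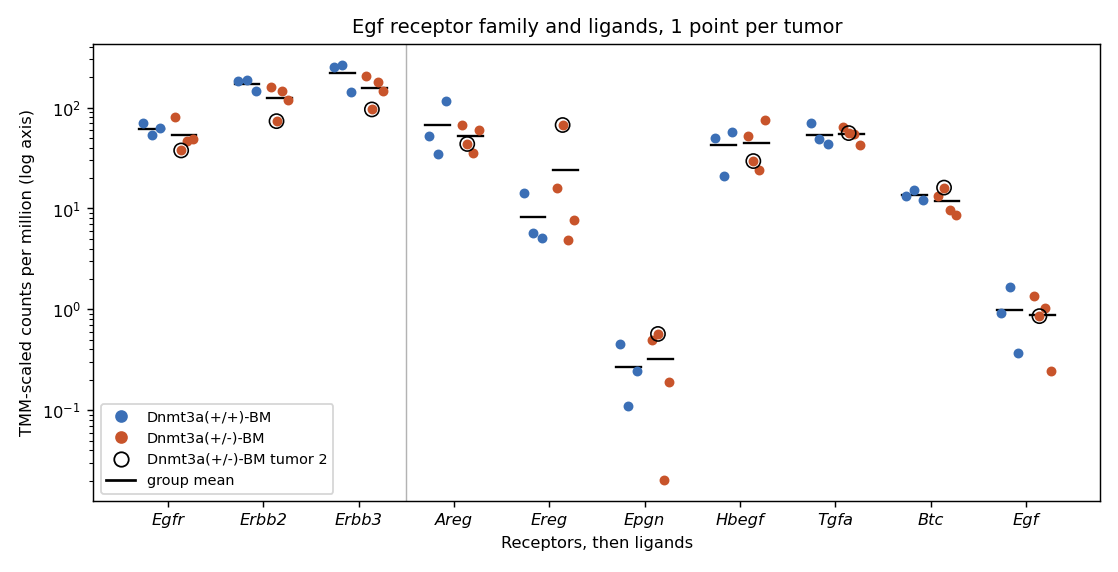
TMM-scaled CPM (log axis) of the 3 receptors and the 7 ligands, 1 point per tumor, blue for the 3 Dnmt3a(+/+)-BM and orange for the 4 Dnmt3a(+/-)-BM tumors, black lines for group means and a ring for Dnmt3a(+/-)-BM tumor 2. The groups overlap for every gene, and the ringed tumor is the lowest for the 3 receptors and the highest for Ereg at 67.2.

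Among the receptors, Egfr (ENSMUSG00000020122, chr11:16752203-16918158, plus strand) encodes the receptor that all 7 ligands bind. Its level was 69.7, 53.0 and 62.2 CPM in Dnmt3a(+/+)-BM tumors 1 to 3 and 81.2, 37.6, 46.7 and 49.0 CPM in Dnmt3a(+/-)-BM tumors 1 to 4. Dnmt3a(+/-)-BM tumors 2 to 4 lay below all controls and tumor 1 above them, so the groups overlapped. The means were 61.6 ± 8.37 (SD, n = 3) and 53.6 ± 19.0 CPM (SD, n = 4). By edgeR the log2 fold change was -0.20 (SE 0.26, 95% interval -0.81 to 0.41, adjusted p = 0.824). The 2 tumors highest in Egfr, tumor 1 of each group, were also the 2 with the highest sum of squamous markers, and the part of that tissue in the Egfr level was not tested. Without both tumors the log2 fold change was -0.35 (unadjusted p = 0.115), and without Dnmt3a(+/-)-BM tumor 1 alone it was -0.45 (unadjusted p = 0.0341). That value was the lowest of 16 alternatives. Leaving out Dnmt3a(+/-)-BM tumor 2 instead gave -0.043 (edgeR unadjusted p = 0.864), BMT18 alone -0.042 and scaling to library size only -0.0055.

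Erbb2 (ENSMUSG00000062312, chr11:98412470-98437716, plus strand), the ligand-less partner receptor, was at 185, 187 and 145 CPM with Dnmt3a(+/+) BM. With Dnmt3a(+/-) BM it was at 161, 73.4, 146 and 118 CPM. The lowest values belonged to Dnmt3a(+/-)-BM tumors 2 and 4, and the other two lay within the range of the controls. The means were 172 ± 23.9 (SD, n = 3) and 125 ± 38.5 CPM (SD, n = 4), with an edgeR log2 fold change of -0.47 (SE 0.27, 95% interval -1.09 to 0.16, adjusted p = 0.553).

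Erbb3 (ENSMUSG00000018166, chr10:128567523-128589652, minus strand), the receptor that recruits PI3K, was read at 251, 266 and 143 CPM in the controls. The Dnmt3a(+/-)-BM tumors held 207, 95.9, 181 and 145 CPM, so that control tumor 3 and Dnmt3a(+/-)-BM tumor 4 were nearly equal. Its edgeR log2 fold change was -0.48 (SE 0.31, 95% interval -1.21 to 0.24, adjusted p = 0.596). Both Erbb2 and Erbb3 were lowest in Dnmt3a(+/-)-BM tumor 2, the tumor with the lowest sum of colon epithelium markers (10879 CPM, against 15224 to 39044 in the other 6). Without this tumor the log2 fold change was -0.25 for Erbb2 and -0.28 for Erbb3. The part of epithelial content in these levels was not tested.

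Over the 7 tumors Erbb2 and Erbb3 varied together. Pearson's r of their log2 CPM was 0.95 (exact permutation p = 9.9e-04, adjusted over 45 pairs 0.0446) and Spearman's rho was 0.96 (exact permutation p = 0.00278, adjusted 0.125). Without the 2 tumors farthest from the median of Erbb2, r was 0.89. The next pairs were Areg and Hbegf (r = 0.78, exact permutation p = 0.03, adjusted 0.603, rho = 0.89, exact permutation p = 0.0123, adjusted 0.185) and Ereg and Epgn (r = 0.75, exact permutation p = 0.0431, adjusted 0.603, rho = 0.89, exact permutation p = 0.0123, adjusted 0.185). Only for Erbb2 and Erbb3 was an adjusted p of r under 0.05, and that of rho was not. The permutations did not keep grafts or experiments apart. How often other gene pairs reach so high an r was not computed. All points share 1 library per tumor, and each experiment held too few tumors for a value of its own.

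**Figure D3:**
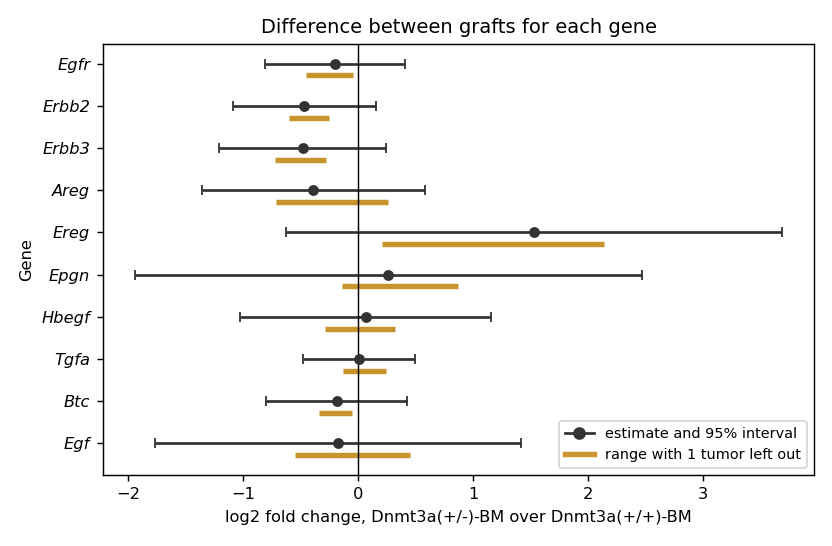
Log2 fold change of Dnmt3a(+/-)-BM over Dnmt3a(+/+)-BM tumors for each gene, with points and black bars for the edgeR estimate and its 95% interval and yellow bars for the range of estimates with 1 tumor left out. Every interval includes 0, and the yellow bar of Ereg spans from 0.21 to 2.14.

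Areg (ENSMUSG00000029378, chr5:91139599-91148432, plus strand) encodes amphiregulin, a ligand made by epithelium and by some leukocytes during repair. It was at 51.8, 34.4 and 117 CPM in the controls and at 67.4, 43.6, 35.8 and 60.3 CPM with Dnmt3a(+/-) BM. Control tumor 3 stood above all others, and the remaining values of both groups were interleaved. The means were 67.8 ± 43.7 (SD, n = 3) and 51.8 ± 14.6 CPM (SD, n = 4), with an edgeR log2 fold change of -0.39 (SE 0.42, 95% interval -1.36 to 0.58, adjusted p = 0.773). Its sign rested on control tumor 3: without it the log2 fold change was 0.26. In that tumor colon epithelium markers summed to 39044 CPM (10879 to 25812 in the others) and smooth muscle markers to 22.6 CPM (243 to 1167). The part of these cells in the Areg level was not tested.

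Ereg (ENSMUSG00000029377, chr5:91074622-91093646, plus strand) encodes epiregulin, a ligand that binds Egfr and Erbb4. Its level was 14.1, 5.71 and 5.11 CPM with Dnmt3a(+/+) BM and 16, 67.2, 4.85 and 7.65 CPM with Dnmt3a(+/-) BM. One tumor, Dnmt3a(+/-)-BM tumor 2, stood far above the rest, and the other 3 of its group spanned the range of the controls. The edgeR log2 fold change was 1.53 (SE 0.93, 95% interval -0.63 to 3.69, adjusted p = 0.571), the widest upward difference of the 10 genes, and without that tumor it was 0.21. DESeq2 gave 1.55 with an adjusted p of 0.405. In the same tumor fibroblast markers summed to 1067 CPM (177 to 393 in the other 6), endothelial markers to 130.1 CPM (12.1 to 57.2) and leukocyte and macrophage markers to 123 CPM (23.1 to 62), and the part of these cells in the Ereg level was not tested.

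Epgn (ENSMUSG00000035020, chr5:91027464-91035215, plus strand) encodes epigen, a low-affinity Egfr ligand of epithelia. It was counted only 17, 7 and 8 times in the controls and 20, 28, 1 and 7 times with Dnmt3a(+/-) BM. These counts correspond to 0.109 to 0.457 CPM and 0.0203 to 0.57 CPM, so the groups overlapped. Its edgeR log2 fold change was 0.26 (SE 0.95, 95% interval -1.94 to 2.47, adjusted p = 0.948), an interval from 0.26 to 5.52 times the control level.

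Hbegf (ENSMUSG00000024486, chr18:36504927-36515805, minus strand) encodes heparin-binding Egf, which also binds Erbb4. It was at 50.2, 21.2 and 57.7 CPM in the controls and at 52.2, 29.5, 23.9 and 74.6 CPM with Dnmt3a(+/-) BM. Both groups spanned low and high tumors, and the edgeR log2 fold change was 0.065 (SE 0.47, 95% interval -1.03 to 1.16, adjusted p = 0.976).

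Tgfa (ENSMUSG00000029999, chr6:86195223-86275719, plus strand) encodes transforming growth factor alpha, a classical autocrine ligand of epithelium. It was the steadiest of the 10 genes: 70.1, 48.3 and 43.3 CPM in the controls and 63.5, 55.9, 54.4 and 42.9 CPM with Dnmt3a(+/-) BM, a ratio of highest to lowest tumor of 1.64. The edgeR log2 fold change was 0.0072 (SE 0.21, 95% interval -0.48 to 0.50, adjusted p = 0.994), an interval that corresponds to between 0.716 and 1.41 times the control level.

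Btc (ENSMUSG00000082361, chr5:91357261-91402994, minus strand) encodes betacellulin, a ligand of Egfr and Erbb4. Its level was 13.3, 15.1 and 12.1 CPM in the controls and 13.2, 16.1, 9.67 and 8.57 CPM with Dnmt3a(+/-) BM. The 2 lowest values were those of Dnmt3a(+/-)-BM tumors 3 and 4, both of experiment BMT8. By edgeR the log2 fold change was -0.18 (SE 0.27, 95% interval -0.80 to 0.43, adjusted p = 0.845), and with scaling to library size only its sign turned (0.044).

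Egf (ENSMUSG00000028017, chr3:129677565-129755316, minus strand), the ligand that names the family, was nearly absent. It was counted 34, 107 and 12 times in the controls (0.913, 1.67 and 0.367 CPM) and 55, 42, 51 and 9 times with Dnmt3a(+/-) BM (1.37, 0.856, 1.04 and 0.243 CPM). The lowest tumors were Dnmt3a(+/+)-BM tumor 3 and Dnmt3a(+/-)-BM tumor 4, both of BMT8. Its edgeR log2 fold change was -0.17 (SE 0.69, 95% interval -1.77 to 1.42, adjusted p = 0.953), with the sign turned by scaling to library size only (0.0038).

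Levels of different genes were compared as CPM per kilobase of annotated exon, summed over all transcripts of a gene, so that genes with many alternative exons, such as Egfr with 11326 bases, are understated. On this scale Areg led with a mean of 48.3 over the 7 tumors (28.3 to 96.6), followed by Erbb3 at 30.6 and Erbb2 at 27.8. Hbegf (9.14), Tgfa (8.33), Egfr (5.04), Ereg (4.17) and Btc (2.78) formed the middle, and Epgn (0.165) and Egf (0.0818) were last. Several neighbours in this order exchanged places between tumors: Areg was above Erbb3 in 5 of 7 tumors, Erbb3 above Erbb2 in 6, Hbegf above Tgfa in 3, Ereg above Btc in 3 and Epgn above Egf in 5. Erbb2 was above Hbegf, Tgfa above Egfr, and Btc above Epgn in all 7, and Egfr was above Ereg in 6.

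Areg made up the greater part of the summed ligand level per kilobase in every tumor, with 60.5%, 62.8% and 81.0% in the controls and 66.7%, 50.7%, 63.8% and 65.7% with Dnmt3a(+/-) BM. Ereg held between 1.04% and 4.83% in 6 tumors and 23.0% in Dnmt3a(+/-)-BM tumor 2, where Areg had its lowest share. Hbegf held 8.6% to 20.4% and Tgfa at least 5.59%. These shares rest on the annotated exon lengths, 1215 bases for Areg against 6490 for Tgfa. In CPM not divided by length, the means of Areg and Tgfa were 67.8 and 53.9 in the controls. With Dnmt3a(+/-) BM they were 51.8 and 54.2. Of the summed receptor level per kilobase, Egfr held 5.53% to 9.96%, Erbb2 42.2% to 48.7% and Erbb3 41.7% to 52.2%. Egfr thus had the smallest share in all 7 tumors. Erbb3 held more than Erbb2 except in Dnmt3a(+/+)-BM tumor 3 (41.7% against 48.7%). The summed receptor level itself ranged from 57.0 to 84.7 CPM per kilobase in the controls and from 33.4 in Dnmt3a(+/-)-BM tumor 2 to 72.5 in Dnmt3a(+/-)-BM tumor 1.

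**Figure D4:**
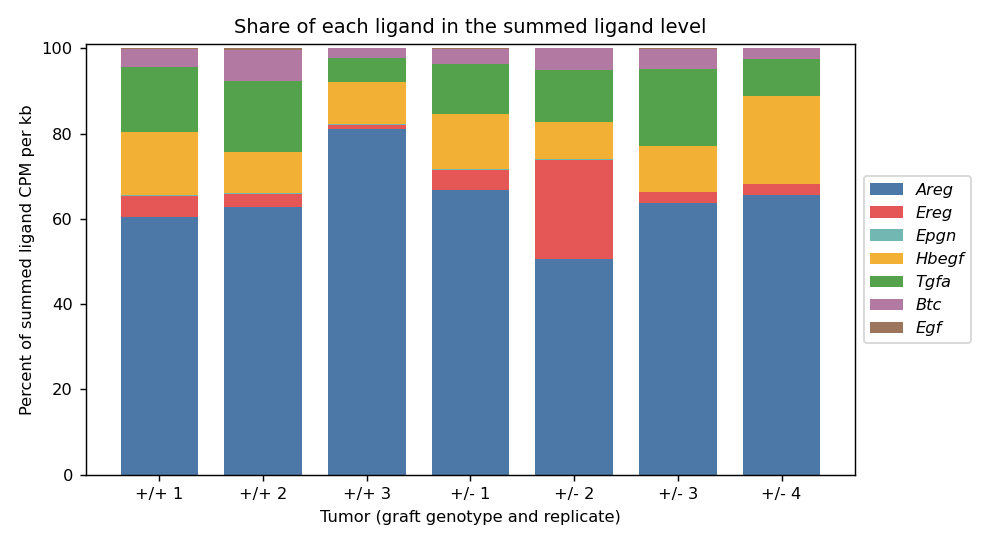
Stacked bars give the percent of the summed ligand CPM per kilobase held by each of the 7 ligands, with 1 bar per tumor from Dnmt3a(+/+)-BM tumor 1 (left) to Dnmt3a(+/-)-BM tumor 4 (right). Areg fills 50.7% to 81.0% of every bar, and the Ereg segment reaches 23.0% in Dnmt3a(+/-)-BM tumor 2 alone.

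The spread of the members within the groups was read against that of all genes tested, whose median SD of log2 CPM was 0.39. Tgfa (0.29), Btc (0.34) and Egfr (0.38) lay below this median and Erbb2 (0.41) and Erbb3 (0.49) slightly above it. Areg (0.66), Hbegf (0.76), Egf (1.02), Epgn (1.27) and Ereg (1.38) varied more, and the SD of Ereg was larger than that of 93.6% of all genes tested.

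Whether the graft difference varied between the 2 transplantation experiments was asked with an interaction term in edgeR. It called 0 of 15810 genes (0%) and held 4.62% of them at an unadjusted p under 0.05, and 1 of the 10 members, Areg, was among these. The mean log2 CPM of Areg with Dnmt3a(+/-) BM minus that with Dnmt3a(+/+) BM was 0.36 in BMT18 and -1.34 in BMT8. The fitted interaction was -1.65 (unadjusted p = 0.0286, adjusted p = 1) and rests on the single control of BMT8. For Erbb2 the same differences of log2 CPM were -0.77 and -0.14, for Erbb3 -0.87 and 0.18, and for Ereg 1.87 and 0.25.

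The genes whose log2 CPM was most like that of Egfr over the 7 tumors, by Pearson's r among the other 15800 tested genes, were Gltp, a glycolipid transfer protein, Klf8, a zinc finger transcription factor, and Epn3, an endocytic adaptor, each with r = 0.99. Gltp stood at 172, 107 and 142 CPM in the controls and 222, 48.1, 92.6 and 92.1 CPM with Dnmt3a(+/-) BM, with tumor 1 the highest of each group. For Areg they were Rps2-ps10 and Gm12359 (r = 0.98 each) and the histone gene Hist1h2ap (r = 0.96). The first is a pseudogene of a ribosomal protein and the last belongs to a family of near-identical genes, so their counts are uncertain. Levels were low for Gm12359 (0.183 to 0.673 CPM) and for Klf8 (0.102 to 2.27 CPM), which limits their r as well. An r over 0.9 was found for 303 genes with Egfr and for 34 with Areg, all as a description of 7 tumors.

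The rest of the pathway was described with 6 lists of 79 genes, of which 76 were tested. At an unadjusted p under 0.05 edgeR held 9 of the 76, 4 higher and 5 lower with Dnmt3a(+/-) BM, beside 11% of all genes, and their lowest adjusted p was 0.361, so none was called. The groups did not overlap for 11 of the 76, beside 12.4% of all genes. DESeq2 called 2 of them, Etv5 and Adam12, beside 1.87% of all genes. The pathway genes were read in the same tumors in which endothelial markers summed to 12.1 to 22.8 CPM with Dnmt3a(+/+) BM and 20.5 to 130.1 CPM with Dnmt3a(+/-) BM, fibroblast markers to 177 to 348 and 256 to 1067 CPM, and colon epithelium markers to 20023 to 39044 and 10879 to 24749 CPM. The part of these cells in the higher Etv5 and Adam12 and in the lower epithelial genes Rhbdl2 and Cblc was not tested.

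**Figure D5:**
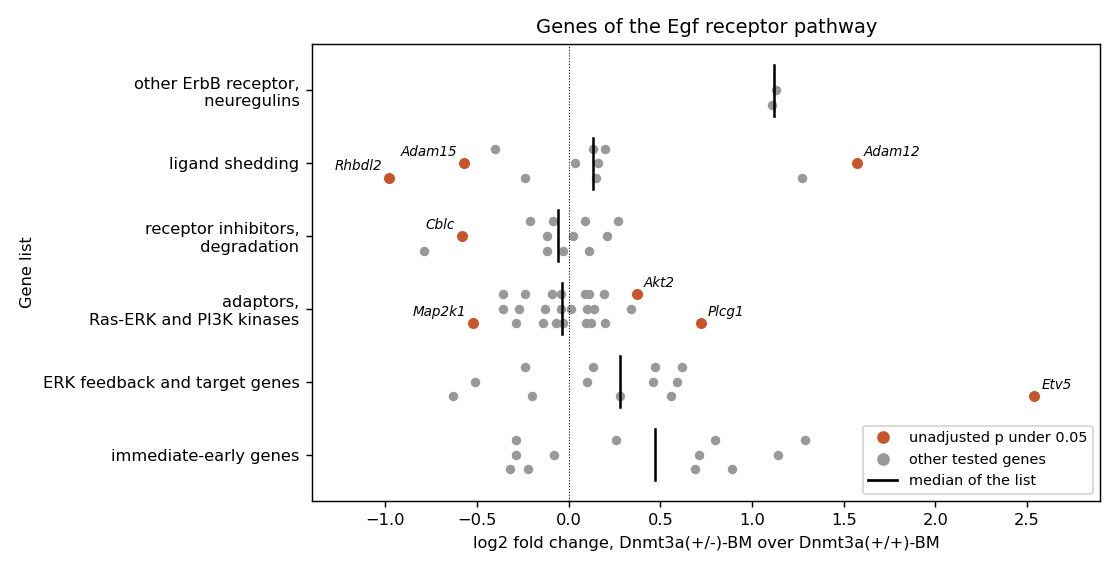
Log2 fold change of Dnmt3a(+/-)-BM over Dnmt3a(+/+)-BM tumors for tested genes of 6 pathway lists (1 gene is not shown), 1 point per gene, orange and named at an unadjusted p under 0.05 and grey otherwise, with a black line at each list's median (vertical offsets only separate points). Etv5 lies farthest to the right at 2.54, and the medians of the lists of shedding, inhibitor and kinase genes lie between -0.059 and 0.13.

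Of the remaining receptor and its ligands, the neuregulins, only Nrg1 and Nrg4 were tested, because Erbb4, Nrg2 and Nrg3 did not pass the filter on low counts. Erbb4, the fourth receptor, was counted between 0 and 3 times per tumor. Nrg1, an Erbb3 and Erbb4 ligand, was at 1.83, 0.562 and 0.887 CPM in the controls and 2.00, 5.34, 1.08 and 1.11 CPM with Dnmt3a(+/-) BM (edgeR log2 fold change 1.13, SE 0.72, adjusted p = 0.592). Nrg4, an Erbb4 ligand, was at 0.281 to 0.489 CPM and 0.305 to 1.67 CPM (1.11, SE 0.65, adjusted p = 0.558). Both were highest in Dnmt3a(+/-)-BM tumor 2, and leaving it out gave log2 fold changes of 0.38 for Nrg1 and 0.45 for Nrg4.

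All 11 genes of ligand shedding, the step that frees ligands from the membrane, were tested. The fitted change was above 0 for 7 and below 0 for 4, with a median of 0.13, and 1 higher and 2 lower genes had an unadjusted p under 0.05. Adam12, a metalloprotease able to cleave Hbegf, was at 5.05, 2.94 and 3.85 CPM in the controls and 6.94, 20.1, 11 and 8.62 CPM with Dnmt3a(+/-) BM. The groups did not overlap (edgeR log2 fold change 1.57, SE 0.43, adjusted p = 0.361, DESeq2 adjusted p = 0.0192). Adam15, another metalloprotease, was at 49.7, 57.2 and 38.5 CPM against 38.1, 35.9, 31.8 and 25.2 CPM (-0.57, SE 0.20, edgeR adjusted p = 0.406). Rhbdl2, a rhomboid protease of epithelial membranes, was at 95.2, 90.3 and 62.3 CPM against 57.6, 16.8, 50 and 43.6 CPM (-0.98, SE 0.38, edgeR adjusted p = 0.429). Adam17, the main sheddase of Areg, Ereg, Hbegf and Tgfa, was at 85.1, 56.3 and 46.6 CPM and 96.3, 77.3, 57.7 and 48.3 CPM, overlapping widely (0.16, SE 0.29, edgeR adjusted p = 0.889). Adam17 was named for this role and not by its p.

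The 12 tested inhibitors and degradation factors of the receptors had a median log2 fold change of -0.059, with 5 above 0 and 7 below. One, Cblc, a ubiquitin ligase of epithelia that marks active Egfr for degradation, had an unadjusted p under 0.05. It was at 149.6, 115 and 163 CPM in the controls and 109, 64.4, 107 and 102 CPM with Dnmt3a(+/-) BM, without overlap (edgeR log2 fold change -0.58, SE 0.22, adjusted p = 0.422).

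Among the 26 adaptors and kinases of the Ras-ERK and PI3K cascades, 12 lay above and 14 below 0, with a median of -0.037. Plcg1, the phospholipase recruited by active Egfr, was at 29.4, 27.6 and 32.3 CPM against 37.4, 67.4, 41.3 and 50.4 CPM with Dnmt3a(+/-) BM (edgeR log2 fold change 0.72, SE 0.22, adjusted p = 0.383). Akt2, a kinase downstream of PI3K, was at 67.9 to 83.6 CPM against 89.1 to 116 CPM (0.37, SE 0.15, edgeR adjusted p = 0.441). For both genes the groups did not overlap. Map2k1, which phosphorylates ERK, was at 141 to 217 CPM against 103 to 166 CPM, with overlap (-0.52, SE 0.22, edgeR adjusted p = 0.451).

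Of the 13 feedback and target genes of ERK, 9 lay above and 4 below 0, with a median of 0.28. Etv5, an ETS transcription factor, had the lowest p of all 76 pathway genes. It was at 12.7, 13.6 and 13.8 CPM in the controls and 34.2, 162, 75.9 and 39.4 CPM with Dnmt3a(+/-) BM. All 4 tumors lay above the narrow range of the controls, and Dnmt3a(+/-)-BM tumor 2 was again the highest. By edgeR the log2 fold change was 2.54 (SE 0.56, unadjusted p = 0.00215, adjusted p = 0.361), and without that tumor it was 1.94, while DESeq2 gave 2.56 with an adjusted p of 7.0e-04. Dusp6 and Spry4, feedback inhibitors of the cascade, were named for their role after values were seen, and both were likewise highest in Dnmt3a(+/-)-BM tumor 2. Dusp6 was at 59.9 to 78.3 CPM in the controls and 58.0 to 92.9 CPM with Dnmt3a(+/-) BM (edgeR log2 fold change 0.13, SE 0.20, adjusted p = 0.853). Spry4 was at 2.58 to 6.55 CPM and 2.62 to 15.8 CPM (0.56, SE 0.75, edgeR adjusted p = 0.827), and without that tumor its log2 fold change was -0.50. None of the 12 immediate-early genes, such as Fos and Egr1, had an unadjusted p under 0.05, and 7 lay above and 5 below 0 with a median of 0.47.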

How the data were processed

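RNA of 7 whole colon tumors, 1 column per tumor, was read from the table the authors deposited, which holds estimated counts per gene from Trimmomatic, STAR and RSEM on mouse build mm10, without normalization (100% of the values are whole numbers). The annotation release is not given in the sources used here. Symbols, positions and exon lengths were taken from GENCODE M21 through the Ensembl identifiers, which matched 42462 of 43346 genes; the others held 0.104% of the counts. Groups and experiments came from the sample labels.

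Counts were tested with edgeR 4.0.16 in R 4.3.3 (TMM, filterByExpr, quasi-likelihood test, no covariate). SEs and 95% intervals were derived from the F statistic. DESeq2 1.42.0 was an alternative, as were other scalings and filters, the experiment as covariate, a replicate block, BMT18 alone and each tumor left out. Log2 CPM used a prior count of 2. Correlations used exact permutation tests over the 5040 orders of 7 tumors, two-sided. Scripts were tested on simulated data. The authors' own comparisons were not used.

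Genes named were the 10 members, pathway genes at an unadjusted p under 0.05 (at most 4 per list, of which 1 is not reported here), the 3 genes most like Egfr and Areg, Dnmt3a, and Epcam as a tissue marker; Nrg1, Nrg4, Erbb4, Adam17, Dusp6 and Spry4 were added for their role after values were seen. The members and lists were chosen with earlier results of these data known. The tumors are biological replicates by their labels, and no pair was a duplicate.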

Additional observations from a re-analysis of the deposited data

Results flagged for a closer look

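In 46 sets of 4 Dnmt3a(+/-)-BM values (CPM of the named genes, marker and pathway sums, ligand shares), 5 had 1 tumor whose gap to its nearest neighbour exceeded 0.829 of the group's range, Dixon's limit, which chance passes in about 1 of 20 such sets. All 5 were Dnmt3a(+/-)-BM tumor 2, so they are not separate events. Ereg held 23.0% of its summed ligand level per kilobase (gap 0.893 of the range). Mast cell and type 2 innate lymphoid markers summed to 273 CPM (gap 0.965), of which Il1rl1 alone held 224 CPM. Fibroblast markers summed to 1067 CPM (gap 0.831). Spry4 was at 15.8 CPM (gap 0.943), and Cblc was the lowest of its group there, at 64.4 CPM (gap 0.842). What sets this tumor apart was not tested.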

How the results depend on the processing

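The edgeR calls stayed at 0 genes and 0 members under every alternative of scaling, filter, covariate and tumor left out; DESeq2 called 300 genes and 0 members. At an unadjusted p under 0.05 in edgeR, members numbered 0 to 1 with 1 tumor left out: Erbb3 without Dnmt3a(+/+)-BM tumor 3 (log2 fold change -0.72) and Egfr without Dnmt3a(+/-)-BM tumor 1. Pathway genes at that level numbered 9, but 14 with the experiment as covariate, 4 to 11 with 1 tumor left out (5 without Dnmt3a(+/+)-BM tumor 1, 4 without Dnmt3a(+/+)-BM tumor 2, 5 without Dnmt3a(+/-)-BM tumor 2), and 3 without the 2 tumors highest in squamous markers, an alternative chosen after seeing the data. Over all genes 1744 became 883 without Dnmt3a(+/+)-BM tumor 2 and 1114 without Dnmt3a(+/-)-BM tumor 2. Scaling to library size only moved the median of all genes to 0.21.

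Of 157 alternative log2 fold changes of members, 17 changed sign and none became a call. The sign of Areg turned in BMT18 alone (0.37), that of Btc with library size only (0.044) and in BMT18 alone (0.06), and that of Egf with library size only (0.0038) and with the experiment as covariate (0.15). With 1 tumor left out the values ran from -0.71 to 0.26 for Areg, -0.14 to 0.87 for Epgn, -0.29 to 0.32 for Hbegf, -0.13 to 0.24 for Tgfa and -0.55 to 0.45 for Egf. The cause was not tested. Epgn did not pass the filter in 3 alternatives and has no value there. Of 240 alternative values of the named pathway genes and Dnmt3a, 3 changed sign, all with 1 tumor left out (-0.016 to 0.44 for Adam17 and -0.50 to 1.06 for Spry4), and the 2 that became calls were those of DESeq2 for Etv5 and Adam12.

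Replicate numbers name different mice, and deviations of same-numbered tumors correlated at 0.568, 0.071 and -0.038, so the numbers were not taken as pairs. With a replicate block edgeR called 0 genes and 0 members and held 1885 genes, 9 pathway genes and 0 members at an unadjusted p under 0.05, and the log2 fold change was -0.24 for Hbegf and 0.35 for Egf.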
